A study of Mus musculus with 7 samples.

Results

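The ErbB receptor tyrosine kinase genes Egfr, Erbb2, Erbb3 and Erbb4 and the neuregulin genes Nrg1, Nrg2, Nrg3 and Nrg4 are described here across sorted cells of the fetal mouse bowel. All 8 were measured, among 19938 genes in all. For each gene the probe set that the platform annotation pairs with that symbol alone was taken, and each of the 8 had 1 such probe set. The samples came from mice carrying Wnt1-Cre and R26R-EYFP at embryonic day 17.5. The Wnt1 promoter drives Cre recombinase in the neural crest, and Cre switches on the EYFP reporter in those cells and their descendants. Cell sorting of the whole bowel gave 4 YFP-positive samples, which hold the neural crest-derived cells of the bowel (ENCDC), and 3 YFP-negative samples with the remaining bowel cells, each on 1 Affymetrix microarray. The study set the groups side by side to find ENCDC-enriched genes with possible roles late in enteric nervous system development.

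Neuregulins are ligands with an epidermal growth factor (EGF)-like domain that bind ErbB4 and, in some cases, also ErbB3. EGFR binds EGF itself and its closer relatives. ErbB2 has no known ligand of its own and ErbB3 has an impaired kinase, so ErbB3 signals mainly as a dimer with ErbB2 or another family member. In peripheral nerves, neuregulin from axons acts through ErbB2 and ErbB3 on Schwann cells and their precursors, and in the mouse the crest factor Sox10 is needed for normal Erbb3 expression. In humans, NRG1 and NRG3 are among the genes linked to Hirschsprung disease, in which nerve cells are missing from the distal bowel.

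All levels are log2 values after RMA normalization, so a difference of 1 is a doubling. The median level of an array over all genes lay between 5.87 and 5.92. Since the labels do not state whether replicates are from different animals, a p-value here reflects only how far these arrays spread. Precision is set by having 7 arrays, and without detection calls a dim gene cannot be told from background. In bulk samples fewer cells of a type and less RNA per cell cannot be told apart. Neuron, glia, myeloid and mesenchyme markers mostly followed the sort. All 11 measured neuron markers and 8 of 10 glia markers were higher in YFP-positive cells, while 11 of 11 myeloid and 10 of 12 mesenchyme markers were lower. Other lists were less uniform, with 6 of 10 smooth muscle, 3 of 9 endothelium, 1 of 5 mesothelium and 1 of 2 erythroid markers lower. Among endothelium markers 1 was higher. Markers of gut epithelium did not separate the groups (0 of 18 passed). Their mean level was 7.48 to 8.55 on YFP-positive arrays and 8.13 to 8.19 on YFP-negative arrays. The YFP-positive samples are thus not shown to hold ENCDC alone, and levels and folds below belong to the sorted fraction.

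Of the 8 genes, Erbb3 and Nrg3 were higher and Egfr was lower in YFP-positive samples. Erbb2, Erbb4, Nrg1, Nrg2 and Nrg4 did not pass the test. The test was a moderated linear model (limma) fitted over all 19938 genes, with a Benjamini-Hochberg adjusted p under 0.05 as the threshold. Over all genes 8.39% were called higher and 9.11% lower in YFP-positive cells, or 17.5% in either direction. The groups did not overlap for 26.9% of all genes, 13.5% with YFP-positive arrays higher and 13.5% with them lower, and among the members for these same 3. The members' median log2 fold change was 0.01, the same as that of all genes. The call of 3 of 8 genes is a count over a short list chosen with earlier results known, and it is not tested here against that background.

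**Figure D1:**
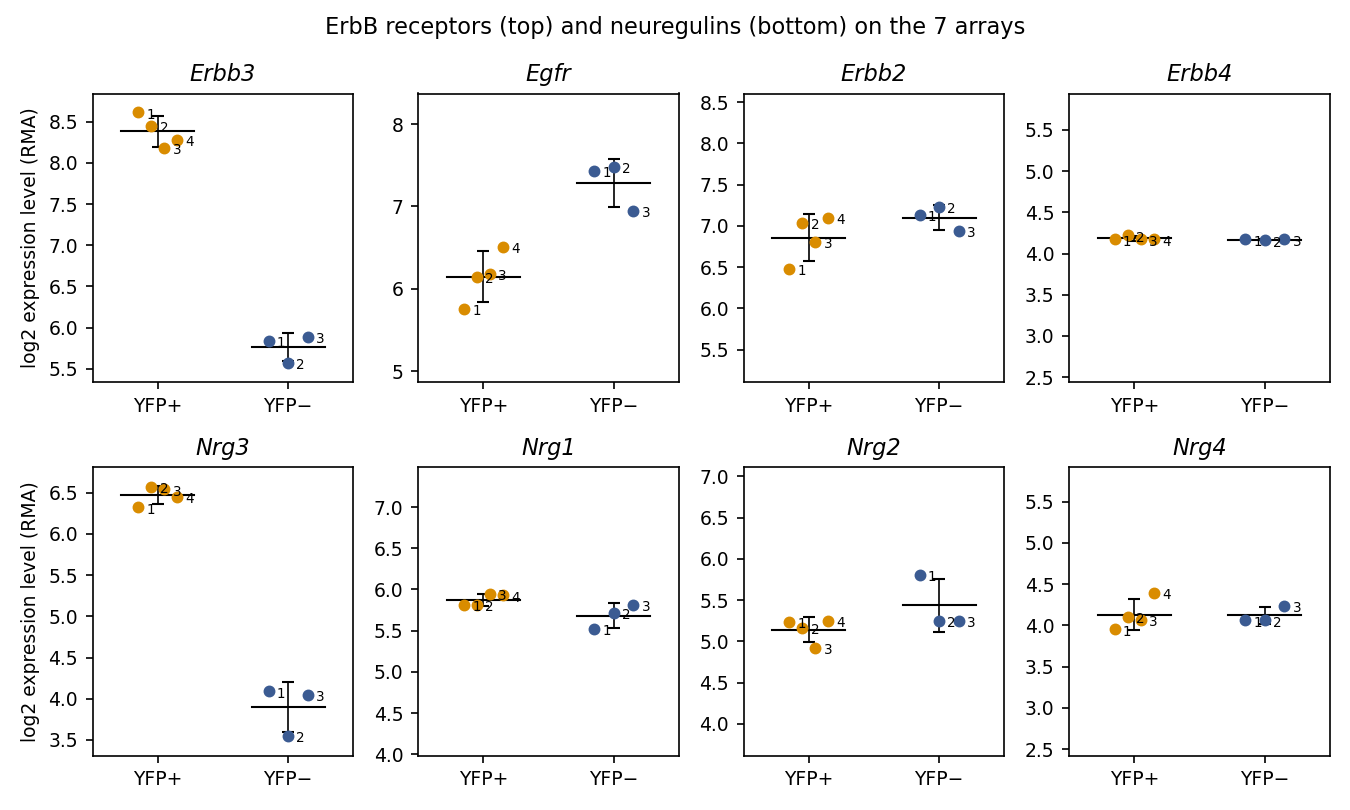
Log2 expression level (RMA) of the 4 ErbB receptor genes (top) and the 4 neuregulin genes (bottom). Each point is 1 array with its replicate number, horizontal bars are group means, error bars are SD (n = 4 YFP-positive, n = 3 YFP-negative), and every panel spans the same number of log2 units. Erbb3 and Nrg3 lie higher and Egfr lower on all YFP-positive arrays than on any YFP-negative array, while the other 5 genes overlap or meet.

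The upstream sequences of the 2 called members with an entry in the RefSeq promoter table (GRCm38.p6) are shown. The start regions of a gene that was higher and a gene that was lower in YFP-positive samples can thus be read beside their values. Entries of 5 of the 8 genes were kept for this description: Egfr, Erbb2, Erbb4, Nrg3 and Nrg4. Each sequence is the 250 bases before the annotated start, 5′ to 3′ on the gene's strand. Capitals mark matches to a motif on either strand.
Nrg3, chr14:39473089-39473338, minus strand: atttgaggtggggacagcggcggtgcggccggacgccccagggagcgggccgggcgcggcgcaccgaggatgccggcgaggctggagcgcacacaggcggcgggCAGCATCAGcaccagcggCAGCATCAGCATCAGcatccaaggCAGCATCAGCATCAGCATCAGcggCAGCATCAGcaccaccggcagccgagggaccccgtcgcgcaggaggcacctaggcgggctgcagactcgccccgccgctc
Egfr, chr11:16751953-16752202, plus strand: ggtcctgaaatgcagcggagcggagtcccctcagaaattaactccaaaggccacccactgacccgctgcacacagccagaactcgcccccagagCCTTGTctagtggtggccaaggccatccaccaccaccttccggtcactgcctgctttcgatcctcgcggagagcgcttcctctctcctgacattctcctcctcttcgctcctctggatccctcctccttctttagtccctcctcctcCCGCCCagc

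The Nrg3 window was 72.4% G and C and the Egfr window 60.8%, against a median of 52.4% over all 32851 promoters of the table. The motifs searched were the GC box GGGCGG, the E-box CANNTG, the SOX core ACAANG and the homeodomain core TAATTA, each on both strands. They occur in 32.7%, 66.2%, 36.3% and 4.84% of all such windows in that order. The Egfr window held 1 GC box, starting 9 bases before the annotated start on the reverse strand, and 1 SOX core, and no E-box or homeodomain core. The Nrg3 window held none of these 4 letter strings. It held CAGCATCAG, a string chosen after the sequence was seen, at 7 positions, some of them overlapping, and that string occurs in 0.423% of all windows. These are descriptions of letters and not binding sites.

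Erbb3, the receptor through which glial precursors respond to neuregulin, had the largest difference of the 4 receptors. Its log2 level was 8.61, 8.45, 8.18 and 8.28 on YFP-positive arrays 1 to 4, against 5.84, 5.57 and 5.89 on YFP-negative arrays 1 to 3. The lowest YFP-positive array lay 2.30 above the highest YFP-negative array, far more than the span within either group (0.42 and 0.31). YFP-positive samples thus had a 6.11-fold higher level (2.61 ± 0.13 SE as a log2 fold change, 95% interval 2.32 to 2.91, limma adjusted p = 4.30e-05). By log2 fold change Erbb3 ranked 107 of 19938 genes in the upward direction.

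The Erbb3 levels stood beside marker levels that varied within the YFP-positive group. The glia marker mean was 8.0, 7.92, 7.68 and 7.65 and the neuron marker mean 9.48, 9.43, 9.12 and 8.92 on YFP-positive arrays 1 to 4. Both lists, like Erbb3, were higher on arrays 1 and 2 than on arrays 3 and 4. On the YFP-negative arrays the glia mean was 5.47 to 5.63 and the neuron mean 5.17 to 5.53. Sox10, the crest and glia transcription factor, had levels of 8.33, 8.23, 7.86 and 7.90 on YFP-positive arrays, against 5.33, 5.59 and 5.77 on YFP-negative arrays (log2 fold change 2.52 ± 0.15 SE, limma adjusted p = 1.00e-04). The part of cell composition in the Erbb3 difference was not tested. Without YFP-positive arrays 3 and 4, a setting chosen after the data were seen, the Erbb3 difference was 2.76 ± 0.12 SE. Those arrays had the lowest Erbb3 levels of the group, so the larger difference followed from the choice alone.

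Egfr, the receptor for EGF-like ligands other than neuregulins, went the other way. It had log2 levels of 5.76, 6.15, 6.18 and 6.51 on YFP-positive arrays 1 to 4, against 7.43, 7.48 and 6.95 on YFP-negative arrays 1 to 3. All YFP-positive arrays were lower than any YFP-negative array, with a gap of 0.44 that was smaller than the span within the groups (0.76 over the YFP-positive and 0.53 over the YFP-negative arrays). The YFP-positive mean was 6.15 ± 0.31 (SD, n = 4) and the YFP-negative mean 7.29 ± 0.29 (SD, n = 3). The log2 fold change was -1.14 ± 0.20 SE (95% interval -1.61 to -0.66, limma adjusted p = 0.00845), or 2.20-fold lower in YFP-positive samples. With each array left out in turn the adjusted p stayed between 0.00854 and 0.0444.

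Several non-neural marker means moved with Egfr inside the YFP-positive group. The mesenchyme marker mean was 7.04, 7.31, 7.73 and 7.92 on YFP-positive arrays 1 to 4, against 9.22, 9.24 and 8.71 on YFP-negative arrays. The smooth muscle marker mean was 7.41, 7.98, 8.54 and 8.96, against 9.70, 9.65 and 9.25, and the myeloid mean 5.30, 5.64, 6.13 and 6.32, against 9.08, 9.28 and 9.16. Egfr was lowest on YFP-positive array 1 and highest on array 4, as were all 3 means, and among YFP-negative arrays Egfr and the mesenchyme and smooth muscle means were lowest on array 3. The mesothelium mean (6.13, 6.24, 6.61 and 6.69, against 7.22, 7.05 and 6.40) had the same order over YFP-positive arrays and was also lowest on YFP-negative array 3. The epithelium mean (7.48, 7.73, 8.36 and 8.55, against 8.13, 8.16 and 8.19) had that order over YFP-positive arrays too, although it did not separate the groups. The endothelium mean (5.01, 4.93, 5.13 and 5.23, against 5.46, 5.44 and 5.68) did not share that order. Nor did the erythroid mean of 2 genes (5.0, 5.25, 5.45 and 5.35, against 5.84, 7.71 and 10.01). The part of these cell types in the Egfr difference was not tested. Without YFP-positive arrays 3 and 4 the log2 fold change of Egfr was -1.34 ± 0.22 SE (limma adjusted p = 0.0259). That choice by itself removes the YFP-positive arrays with the highest non-neural means. Those arrays also had the highest Egfr levels of the group, so the larger difference followed from the choice alone.

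**Figure D2:**
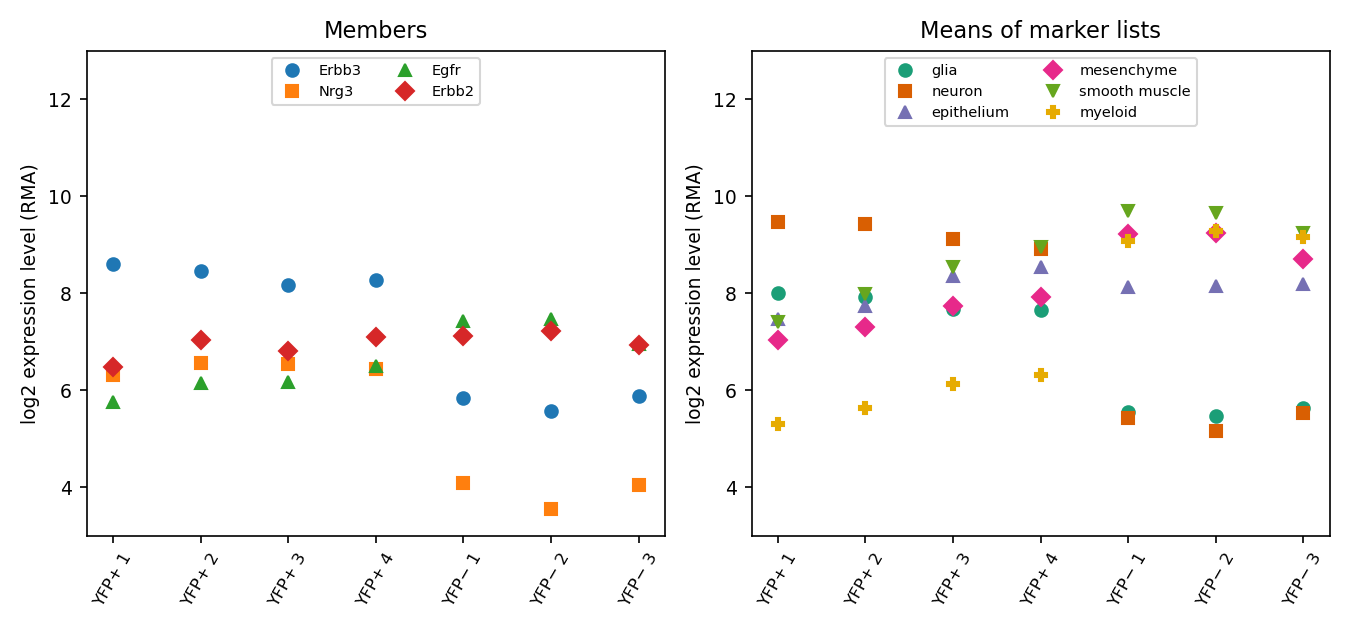
Log2 expression level (RMA) on each of the 7 arrays for Erbb3, Nrg3, Egfr and Erbb2 (left) and the mean level of 6 marker lists (right). Points are arrays, and levels are to be compared across arrays within a gene or list, not between genes. Egfr runs between 5.76 and 6.51 over YFP-positive arrays in the same order as the mesenchyme, smooth muscle and myeloid means, while Nrg3 stays between 6.32 and 6.57.

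Erbb2, the shared dimer partner that binds no ligand of its own, did not pass. Its log2 levels were 6.48, 7.04, 6.81 and 7.10 on YFP-positive arrays and 7.13, 7.23 and 6.94 on YFP-negative arrays. The groups overlapped, and YFP-positive array 1 was the lowest of the 7. The log2 fold change was -0.24 ± 0.16 SE, with a 95% interval from -0.62 to 0.14 (limma adjusted p = 0.374). That interval leaves out log2 rises above 0.14 and falls beyond -0.62, and so a 2-fold change either way. It does not leave out the smaller differences between these bounds. Another probe set, which the annotation pairs with both Erbb2 and Sympk and which was therefore not used, had 5.54, 5.93, 6.20 and 6.30 on YFP-positive arrays and 7.47, 7.85 and 8.29 on YFP-negative arrays. Its difference of -1.88 was larger than that of the Erbb2 probe set and cannot be assigned to either gene.

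Erbb4, a receptor for all 4 neuregulins that has an active kinase, gave almost no variation. Its level was 4.17, 4.22, 4.17 and 4.17 on YFP-positive arrays, against 4.17, 4.16 and 4.17 on YFP-negative arrays, with 3 distinct values over the 7 arrays. Repeated values are common in this table, and 53.7% of genes had at least 1 value that occurred on more than 1 array to 4 decimals. The log2 fold change was 0.02 ± 0.05 SE (95% interval -0.10 to 0.13, limma adjusted p = 0.854). Erbb4 and Nrg4 were both among the dim genes that a filter on mean level would leave out.

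Nrg3, a neuregulin that binds ErbB4, was the neuregulin that differed. The log2 levels of Nrg3 were 6.32, 6.57, 6.54 and 6.45 on YFP-positive arrays 1 to 4, against 4.09, 3.55 and 4.05 on YFP-negative arrays 1 to 3. The groups were 2.23 apart at their nearest arrays, while the spans within them were 0.26 and 0.54. YFP-positive samples had a 5.96-fold higher level (2.58 ± 0.14 SE as a log2 fold change, 95% interval 2.23 to 2.92, limma adjusted p = 7.43e-05). The YFP-negative mean of 3.9 was as low as those of the dim genes Erbb4 (4.17) and Nrg4 (4.12). Without detection calls it cannot be told from background, so the size of the fold is uncertain. Within the YFP-positive group Nrg3 was lowest on array 1, where the neuron and glia marker means were highest, unlike Erbb3, which was highest there. Without YFP-positive arrays 3 and 4 its difference was 2.55 ± 0.21 SE.

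Nrg1, the neuregulin best known from Schwann cell and heart development, did not pass. It had levels of 5.81, 5.81, 5.95 and 5.93 on YFP-positive arrays and 5.52, 5.72 and 5.81 on YFP-negative arrays. The lowest YFP-positive value and the highest YFP-negative value were the same number, so the groups met without separating. The log2 fold change was 0.19 ± 0.08 SE (95% interval -0.01 to 0.39, limma adjusted p = 0.190). The gene has many isoforms that differ in their ends, and its only probe set here gives 1 value for all of those it detects.

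Nrg2, a ligand of ErbB3 and ErbB4, had levels of 5.24, 5.16, 4.92 and 5.25 on YFP-positive arrays and 5.81, 5.25 and 5.25 on YFP-negative arrays. YFP-negative array 1 stood above the other 6. The log2 fold change was -0.30 ± 0.16 SE (95% interval -0.67 to 0.08, limma adjusted p = 0.272), and it was between -0.39 and -0.11 with each array left out in turn. Nrg4, a ligand of ErbB4, had levels of 3.95, 4.10, 4.07 and 4.39 on YFP-positive arrays and 4.06, 4.06 and 4.24 on YFP-negative arrays. The YFP-negative range lay within the YFP-positive range, and the means were 4.12 ± 0.19 (SD, n = 4) and 4.12 ± 0.10 (SD, n = 3). Its log2 fold change was 0.00 ± 0.11 SE (95% interval -0.26 to 0.27, limma adjusted p = 0.992).

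**Figure D3:**
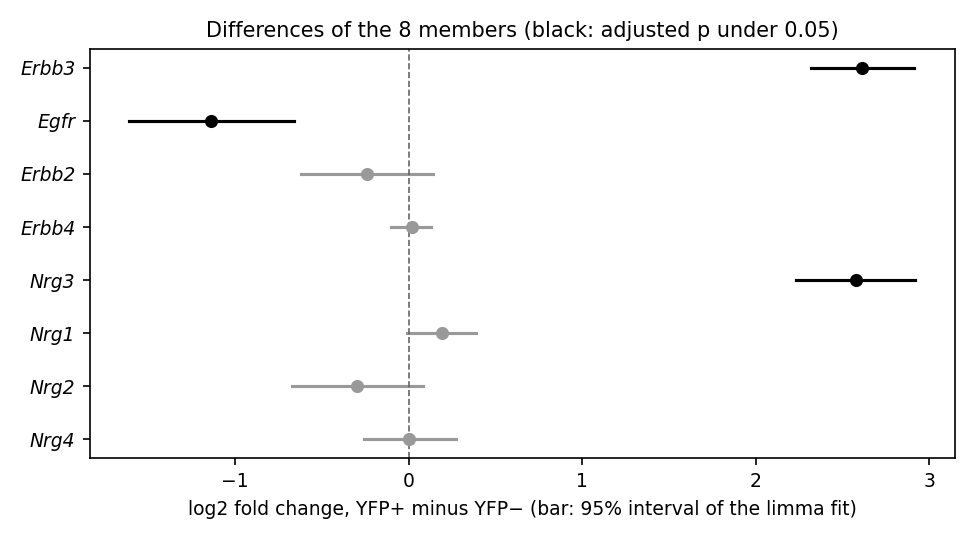
Log2 fold change of each of the 8 genes, YFP-positive minus YFP-negative, with the 95% interval of the limma fit. Black marks an adjusted p under 0.05: Erbb3 (2.61) and Nrg3 (2.58) lie to the right of 0 and Egfr (-1.14) to the left, and the intervals of the 5 grey genes include 0.

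The genes whose profiles were most like those of the called members were found by the root mean square difference of log2 levels over the 7 arrays, each gene centred on its own mean, among 18700 other genes. Epb41l4a, which encodes a FERM-domain protein, was nearest to Erbb3 at 0.061 log2 units, followed by Arfgef3 at 0.080 and Clvs1 at 0.090. Epb41l4a had levels of 7.76, 7.61, 7.21 and 7.36 on YFP-positive arrays, against 5.07, 4.68 and 4.97 on YFP-negative arrays, so it shared with Erbb3 the order of all 4 YFP-positive arrays. Nalcn, a sodium leak channel gene, was nearest to Nrg3 at 0.127, followed by the adhesion gene Igsf11 at 0.130 and the neuronal RNA-binding protein gene Elavl3 at 0.137. Nalcn had 7.32, 7.36, 7.46 and 7.22 on YFP-positive arrays, against 4.98, 4.68 and 5.13 on YFP-negative arrays.

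Egfr had 2 matrix genes nearest to it, Emilin3 at 0.042 and the tenascin gene Tnn at 0.077 log2 units. The third was Lrig3 at 0.081, a gene that the list of ErbB negative regulators also holds. Lrig3 had levels of 5.86, 6.28, 6.18 and 6.63 on YFP-positive arrays, against 7.72, 7.57 and 7.03 on YFP-negative arrays. Emilin3 had 5.38, 5.73, 5.82 and 6.10, against 7.03, 7.02 and 6.63. In both genes, as in Egfr, YFP-positive array 4 was the highest of its group and YFP-negative array 3 the lowest of its group. These likenesses describe the same 7 arrays that gave the differences and carry no test.

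The other EGF-family ligands, which bind EGFR and in part ErbB4, gave no call. Of 6 measured, 0 passed in the limma fit in either direction, 0 had an unadjusted p under 0.05, and the median log2 fold change was -0.04, against 0.01 over all genes. Over all genes 17.5% passed in either direction, and neither this list nor those below were tested against that share. Hbegf had levels of 5.94, 6.23, 6.22 and 6.23 on YFP-positive arrays and 6.44, 6.15 and 6.27 on YFP-negative arrays (log2 fold change -0.13, limma adjusted p = 0.456). Tgfa stood at -0.03 and Ereg at -0.25, and the remaining 3 between -0.06 and 0.09.

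Ectodomain shedding and intramembrane cleavage are the steps that release ligands and receptor tails. Of 17 measured genes of these steps, 2 were higher and 2 lower in YFP-positive samples, with a median of -0.08. Of all genes, 8.39% were higher and 9.11% lower. Adam19, a metalloprotease that can release neuregulin, had 6.68, 6.62, 6.82 and 6.92 on YFP-positive arrays, against 7.72, 8.10 and 7.81 on YFP-negative arrays. The level in YFP-positive samples was 2.17-fold lower (-1.11 as a log2 fold change, limma adjusted p = 8.12e-04). Its relative Adam12 had 8.01, 7.94, 7.78 and 7.83 on YFP-positive arrays, against 7.13, 6.88 and 6.77 on YFP-negative arrays, and was 1.95-fold higher (0.96, limma adjusted p = 8.76e-04). Neither gene's groups overlapped. Adam17 and Adam10, the main sheddases, had log2 fold changes of -0.21 and -0.18 and did not pass (limma adjusted p = 0.124 and 0.179), and both were chosen after their values were seen. Adam8 was lower (-0.46) and Rhbdf1, which encodes a partner of the Adam17 protease, higher (0.33). Leaving out YFP-positive array 2 or either of YFP-negative arrays 2 and 3 ended the Adam8 call (adjusted p of up to 0.0696). The Rhbdf1 call was lost without any array but YFP-negative array 1 (adjusted p of up to 0.0941).

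Of 34 measured genes that relay the signal inside the cell, 10 were higher and 4 lower, and the median of their log2 fold changes was 0.19. The shares among all genes were 8.39% higher and 9.11% lower, and the relay list was not tested against them. Shc4, an adaptor of the Shc family, differed most, with 8.45, 7.63, 7.67 and 7.64 on YFP-positive arrays, against 5.17, 5.0 and 5.23 on YFP-negative arrays (2.71, limma adjusted p = 2.35e-04). YFP-positive array 1 stood above the other 3 of its group. The log2 fold change of Shc4 was still 2.51 in the fit with the smallest value among those that left out 1 array. Fyn, a Src-family kinase, rose by 1.11 and Pik3r3, a regulatory subunit of phosphatidylinositol 3-kinase, by 1.1 on the log2 scale. Shc2, Shc3, Gab1, Sos1, Sos2, Nck2 and Nras were the other 7 higher genes, with log2 fold changes from 0.29 to 0.98. Without YFP-negative array 2 the higher genes numbered 6, as Shc2, Shc3, Sos2 and Nck2 lost their calls. Sos2 also lost its call without YFP-positive array 4 or either other YFP-negative array, and Nck2 without any array but YFP-positive array 1.

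The 4 lower relay genes included some used widely by blood cells. Plcg2, a phospholipase of blood cell receptors, had 5.04, 5.05, 5.25 and 5.13 on YFP-positive arrays, against 6.68, 6.83 and 7.30 on YFP-negative arrays (-1.82, limma adjusted p = 2.85e-04). Vav3 (-0.85), Jak2 (-0.72) and Stat5b (-0.50) were also lower. The call of Vav3 (limma adjusted p = 0.0338) was lost without YFP-positive array 2 or 3 or any YFP-negative array (adjusted p at most 0.104). The myeloid marker levels given above for Egfr stand beside these values as well, and their part was not tested.

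Negative regulators of ErbB and downstream signalling had 2 higher and 1 lower of 24 measured and a median of 0.01. For comparison, 8.39% of all genes were higher and 9.11% lower. Dusp4, a phosphatase that inactivates MAP kinases, had 6.80, 7.42, 7.36 and 7.07 on YFP-positive arrays, against 5.83, 5.76 and 5.08 on YFP-negative arrays (1.61, limma adjusted p = 0.00315). The phosphatase gene Ptpn12 was higher by 0.42 on the log2 scale, a call lost when YFP-positive array 3, YFP-negative array 1 or YFP-negative array 3 was left out (adjusted p of up to 0.0531). Lrig3 was the lower gene (-1.20, limma adjusted p = 0.0101), a call lost without YFP-negative array 2 (adjusted p = 0.0517). Without YFP-negative array 1 or 3 the lower genes numbered 2. Errfi1, a feedback inhibitor of EGFR, had a log2 fold change of -0.23 and Lrig1 of -0.31, and neither passed (limma adjusted p = 0.346 and 0.111); both were chosen after their values were seen.

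Of 15 measured genes for proteins that bind or hold ErbB receptors, 5 were higher and 2 lower, with a median of -0.02. All genes had shares of 8.39% higher and 9.11% lower, against which this list was not tested. Dlg2, a synaptic scaffold, had 9.01, 8.77, 8.70 and 8.79 on YFP-positive arrays, against 5.24, 5.23 and 4.98 on YFP-negative arrays. It was 12.7-fold higher (log2 fold change 3.67, limma adjusted p = 1.48e-05). Pick1, a PDZ-domain protein, rose by 0.83 and the chaperone gene Hsp90aa1 by 0.49 on the log2 scale, while Dlg4 and Dlg3 completed the higher genes at 0.44 and 0.33. Cd44, a hyaluronan receptor that can hold ErbB2, had 5.28, 5.30, 5.98 and 6.01 on YFP-positive arrays, against 7.49, 7.88 and 7.73 on YFP-negative arrays (-2.05, limma adjusted p = 9.83e-04). Dlg1 was lower by a smaller amount (-0.44, limma adjusted p = 0.00130). Without YFP-negative array 1 or 2 the higher genes numbered 3, as Dlg3 and Dlg4 lost their calls, and Dlg4 passed in 1 of the 7 fits that left out an array.

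**Figure D4:**
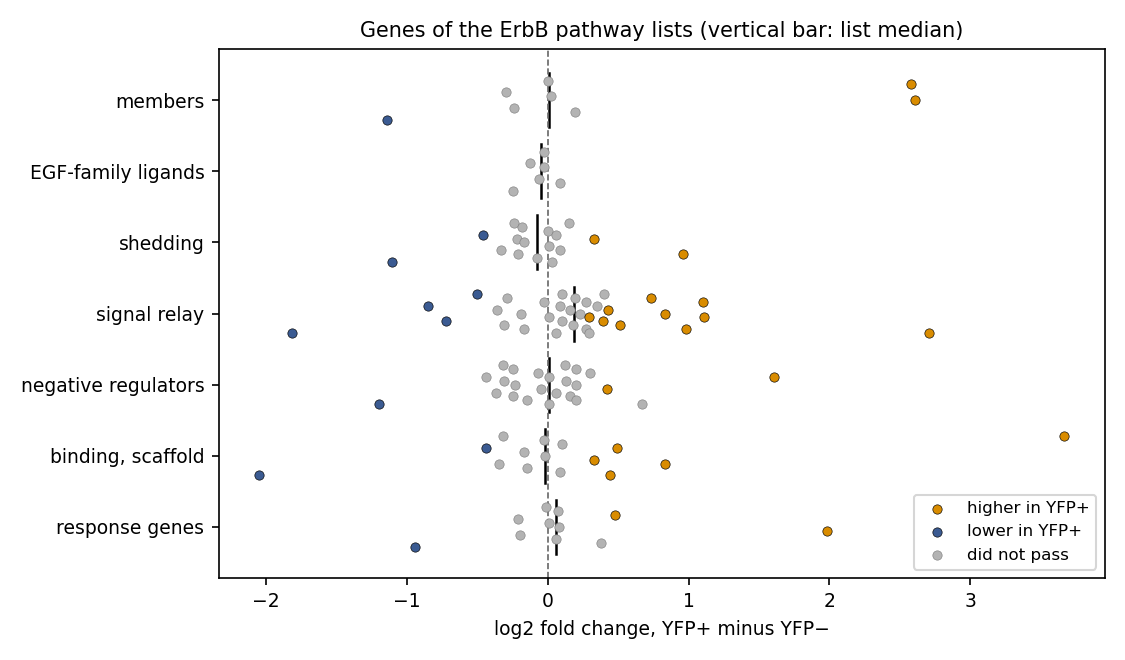
Log2 fold change, YFP-positive minus YFP-negative, of every measured gene of the 8 members and of 6 pathway lists. Points are genes, filled by whether they were higher, lower or did not pass at an adjusted p under 0.05, and vertical bars are list medians, which lie between -0.08 and 0.19. The widest spread is among scaffold genes, from Cd44 at -2.05 to Dlg2 at 3.67.

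Genes that ErbB signalling is known to induce in other cells had 2 higher and 1 lower of 11 measured, with a median of 0.06. As a share of all genes, 8.39% were higher and 9.11% lower. Ccnd1, which encodes cyclin D1, had 10.23, 10.34, 10.36 and 10.26 on YFP-positive arrays, against 8.14, 8.46 and 8.37 on YFP-negative arrays (3.93-fold, limma adjusted p = 3.61e-05). Fosb was 1.39-fold higher, and Junb was 1.92-fold lower (log2 fold change -0.94, limma adjusted p = 0.00280). Egr1, Egr2 and Egr3, early growth response factors, had log2 fold changes from 0.01 to 0.07 and did not pass. The Schwann cell factor gene Pou3f1 had 5.38 on all 4 YFP-positive arrays and 5.41, 5.38 and 5.38 on YFP-negative arrays, and these 4 genes were chosen after their values were seen.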

How the data were processed

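For each probe set the authors deposited a log2 level, and the submitters' processing notes name RMA and Affymetrix Expression Console as the tools. The sources used here give neither their versions nor the set of arrays that RMA was run on. Amplification from little RNA and quantile scaling can compress differences. Every column matched its sample by name. Of 35556 probe sets, 21789 had 1 gene symbol. For 999 genes with several, the brightest probe set by its mean across arrays stood for the gene, which gave 19938 genes. A few genes of these lists were not analysed here.

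The comparison used limma's lmFit and eBayes, version 3.58.1 (R 4.3.3), the p-values were adjusted over all genes, and no filter on level was applied. Differences are YFP-positive minus YFP-negative. Figures and tables used Python 3.11.15. On simulated data for this comparison over 19938 genes, with 50 genes changed per size, the share recovered was 42% at 1.5-fold, 72% at 2-fold, 96% at 4-fold and 100% at 8-fold, and 6 unchanged genes were called. Far fewer genes were changed there than the 3489 called in the real data, which moves the Benjamini-Hochberg cut. The simulated noise was also normal and independent between genes, so these shares do not measure the power of the real comparison. The members and lists were chosen with earlier results of these data known. Named genes are all members, up to 3 genes per list and direction with the largest change past the threshold without overlap, the 3 nearest profiles of each called member, and Sox10. Stat5b, Shc2, Shc3, Gab1, Sos1, Sos2, Nck2, Nras, Dlg3, Dlg4, Hbegf, Tgfa and Ereg were named after their values were seen, to complete counts. Alternatives were other scalings, moderation, a level filter, probe set rules, array weights, a 1.5-fold test, a replicate block and left-out arrays.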

Additional observations from a re-analysis of the deposited data

Results flagged for a closer look

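In 2 of 47 sets of 4 YFP-positive values searched, 1 array stood far from the rest by Dixon's gap ratio, and chance flags about 1 in 20 such groups. Erbb4 read 4.22 on YFP-positive array 2, while the other 3 arrays of the group shared 1 value of 4.17. Shc4 read 8.45 on YFP-positive array 1, against 7.63 to 7.67 on the other 3.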

How the results depend on the processing

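Erbb3 and Nrg3 passed as higher in all 16 alternatives listed for each, with log2 fold changes from 2.51 to 2.76 and from 2.40 to 2.71. Each member had 1 probe set, so averaging probe sets or filtering on level could not change the log2 fold change of a retained member. Egfr passed as lower in 15 of 16 (-1.34 to -1.01). Against a fold of 1.5 rather than any difference, Egfr did not pass (limma adjusted p = 0.204), so the lower members numbered 0. In that test, which is stricter by construction, 1027 genes were called in place of 3489. Higher genes then numbered 2 in the relay list, 0 in the shedding list, and 1 each among scaffold genes, negative regulators and response genes. Lower genes numbered 1 each among relay, scaffold and shedding genes, and 0 among negative regulators and response genes. Erbb2, Erbb4, Nrg1, Nrg2 and Nrg4 passed in 0 alternatives. The sign of Nrg4, near 0 in the main analysis, turned with the replicate block (-0.08), without YFP-positive arrays 3 and 4 (-0.10) and with some arrays left out (range -0.08 to 0.06), and the cause was not tested. With the dimmest genes left out, Erbb4 and Nrg4 gave no value. The median log2 difference of all genes was 0.042 with arrays centred on their medians and 0.012 as deposited. The groups share replicate numbers 1 to 3, but same-numbered arrays did not deviate together (r across genes 0.008, -0.086 and 0.038, genes not being independent replicates), and no array correlated best with its own number. With the replicate block, in which YFP-positive array 4 has no partner, 2509 genes were called, and the block changed no call of a member. Among the genes named as called, it ended the calls of Adam8, Rhbdf1, Fosb, Fyn, Tnn, Sos1, Sos2, Nck2, Dlg3 and Dlg4, so the higher relay genes numbered 6 in place of 10, the higher scaffold genes 3 in place of 5, and the shedding genes 1 higher and 1 lower in place of 2 each. No detection calls were used, so the levels of dim genes limit what can be seen.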
